A study of Mus musculus with 2 samples.

Results

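Genes for respiratory chain and ATP synthase subunits that lie in the nucleus were chosen by name among the RNA features, and 86 of 55401 genes met the rule. They comprised 40 subunits of complex I (Ndufa, Ndufb, Ndufc, Ndufs and Ndufv names and Ndufab1), 9 of complex III (Uqcr names and Cyc1), 19 of complex IV (Cox4i to Cox8 names) and 18 of complex V (Atp5 names). Names marked as pseudogenes and the Ndufaf assembly factors were left out. The choice used names alone and no measured value.

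The cells came from 1 mouse at 55 weeks of age and were isolated as epithelium of its small intestine. The mouse carried a mutation in TrnA, the mitochondrial gene for the alanine tRNA, at a load of 73%. RNA and open chromatin were read from the same fixed, sorted cells as 2 libraries that share all 12363 cell barcodes. Sorting used antibodies to the epithelial protein CD326, to the blood cell markers CD45 and TER-119 and to the vessel marker CD31, with the dye DAPI. The gates are not given in the sources used here. The series concerns acute colitis, but the labels do not say whether this mouse had colitis. No other animal was analysed here, so nothing below measures an effect of the mutation, and with 1 sample no test between animals was possible. Cells of 1 animal are not replicates, and all intervals are 95% intervals that cover counting error only.

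Complexes I, III and IV pass electrons from NADH to oxygen and pump protons across the inner mitochondrial membrane, and complex V (ATP synthase) uses that proton gradient to make ATP. Each is built from a few subunits encoded in mitochondrial DNA (mtDNA) and many encoded in the nucleus, so its assembly draws on both genomes. Absorptive enterocytes are rich in mitochondria, and crypt cells divide and renew the epithelium.

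The promoters below belong to 5 members that the RNA or peak results turn on. They are shown because the sequence motifs of known regulators of respiratory genes were searched in them. All 5 hold a motif match, so they do not stand for the named members as a set. The 250 bases before the starts of Uqcrfs1, Cox7a2 and Ndufa10, for example, held none. Atp5g2 encodes the ring subunit c of ATP synthase. Ndufa11 and Ndufs3 encode an accessory and a core subunit of complex I. Atp5e encodes subunit epsilon of ATP synthase, and Cox7a1 encodes the muscle isoform of a complex IV subunit. Each line gives the 250 bases before the RefSeq transcript start (GRCm38.p6), 5′ to 3′ along the gene, with motif matches in capitals. They lie at chr15:102671048-102671297 (minus strand), chr17:56717512-56717761 (plus), chr2:90904722-90904971 (minus), chr2:174464102-174464351 (minus) and chr7:30183921-30184170 (plus), in the order given.
Atp5g2: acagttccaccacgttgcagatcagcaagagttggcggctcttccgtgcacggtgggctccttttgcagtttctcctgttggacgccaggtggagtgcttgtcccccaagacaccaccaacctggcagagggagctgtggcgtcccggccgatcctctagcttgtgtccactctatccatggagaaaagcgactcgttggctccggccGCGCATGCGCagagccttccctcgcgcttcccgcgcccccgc
Ndufa11: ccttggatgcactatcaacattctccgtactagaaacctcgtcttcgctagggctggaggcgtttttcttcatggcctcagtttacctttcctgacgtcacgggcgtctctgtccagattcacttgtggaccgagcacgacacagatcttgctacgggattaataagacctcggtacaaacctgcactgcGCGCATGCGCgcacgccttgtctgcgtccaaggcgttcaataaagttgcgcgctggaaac
Ndufs3: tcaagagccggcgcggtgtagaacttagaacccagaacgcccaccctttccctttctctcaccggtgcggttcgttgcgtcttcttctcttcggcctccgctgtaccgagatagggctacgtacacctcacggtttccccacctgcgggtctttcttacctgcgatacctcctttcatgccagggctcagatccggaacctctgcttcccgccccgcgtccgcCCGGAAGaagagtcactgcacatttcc
Atp5e: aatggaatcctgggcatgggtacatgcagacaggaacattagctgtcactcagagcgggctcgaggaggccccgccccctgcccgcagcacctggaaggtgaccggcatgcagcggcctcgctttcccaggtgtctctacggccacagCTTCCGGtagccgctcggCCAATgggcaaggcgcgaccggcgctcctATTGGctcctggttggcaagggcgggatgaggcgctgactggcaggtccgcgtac
Cox7a1: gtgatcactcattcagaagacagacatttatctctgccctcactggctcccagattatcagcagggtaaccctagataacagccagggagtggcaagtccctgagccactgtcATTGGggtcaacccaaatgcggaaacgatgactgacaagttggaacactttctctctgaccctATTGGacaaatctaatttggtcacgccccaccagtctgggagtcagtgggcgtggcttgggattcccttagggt

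The capitals in Atp5g2 and Ndufa11 mark an exact match to the palindrome bound by NRF1, beginning 42 and 60 bases before the start. Those in Ndufs3 mark CCGGAAG, the ETS-type site that GABP also binds, at 27 bases before the start. Atp5e held the same ETS letters on the other strand at 102 bases, and CCAAT boxes at 84 and 55 bases. Cox7a1 held CCAAT boxes at 137 and 74 bases, both on the other strand (ATTGG), and none of the other motifs. The starts in the deposited feature table lie 80, 5, 106, 4 and 23 bases from these RefSeq starts, in the order given. Of the 86 members, 67 were found in the RefSeq promoter table, where 300-base windows from 250 before to 50 after the start were searched on both strands. Some windows may not be the member's own promoter, since those of Ndufa13 and Atp5pb lie 538 and 836 bases from the starts in the deposited table and the orientation of the Ndufa1 window is uncertain. The NRF1 palindrome was in 5 of them (7.46%), against 0.971% of all 32851 promoters, and the other 3 promoters were those of Uqcrc1, Cox6a1 and Atp5k. The ETS letters were in 14 (20.9% against 8.86%). The YY1 motif AAGATGGC was in 9 (13.4% against 2.75%), of which 7 were subunits of complex I. The estrogen-related receptor motif TCAAGGTCA was in 1 (1.49% against 0.423%), CCAAT in 28 (41.8% against 37.4%) and TATAAA in 8 (11.9% against 13.6%). The windows of the members had a median GC content of 57% and 19 CpGs, against 52.7% and 7 CpGs in all promoters. A match describes letters only and does not show binding.

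The RNA library held 71697164 unique molecular identifiers (UMIs, each counting 1 captured RNA molecule), and the chromatin library held 146191 peaks. After filters 9872 cells were kept, with medians of 5591 UMIs and of 1547 nuclear-encoded UMIs, and 66.1% of their UMIs were mtDNA-encoded. Clusters were named from marker genes: 1906 crypt progenitor-like, 3799 enterocyte-like, 1504 goblet-like, 257 Paneth-like, 182 enteroendocrine-like and 85 tuft-like cells. Another 353 cells were lymphocyte-like, led by Dock2, Ptprc and Gzma, although CD45 was stained for the sort. Another 1786 cells in 2 clusters stayed unnamed. Enterocyte-like cells carried 79.6% mtDNA-encoded UMIs against 39.9% to 58.0% in the other 5 classes, so the main scale is UMIs per 1000000 nuclear-encoded UMIs, written CPM below. On that scale levels compare classes for 1 gene, and not genes with each other.

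Among the 6 named epithelial classes, enterocyte-like cells gave the largest share of their nuclear RNA to the respiratory subunits and Paneth-like cells the smallest. The members took 1.27% (1.26 to 1.28) of nuclear-encoded UMIs in enterocyte-like cells and 0.946% (0.939 to 0.954) in crypt progenitor-like cells. The share was 0.910% (0.868 to 0.953) in tuft-like and 0.819% (0.811 to 0.827) in goblet-like cells. It was 0.669% (0.644 to 0.694) in enteroendocrine-like and 0.661% (0.645 to 0.677) in Paneth-like cells. Neighbours in this order were separated beyond counting error except crypt with tuft and enteroendocrine with Paneth, whose intervals overlap. All 4 complexes had their highest share in enterocyte-like cells, at 0.360% for complex I, 0.162% for III, 0.334% for IV and 0.416% for V. In crypt progenitor-like cells the same shares were 0.299%, 0.118%, 0.232% and 0.298%.

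**Figure D1:**
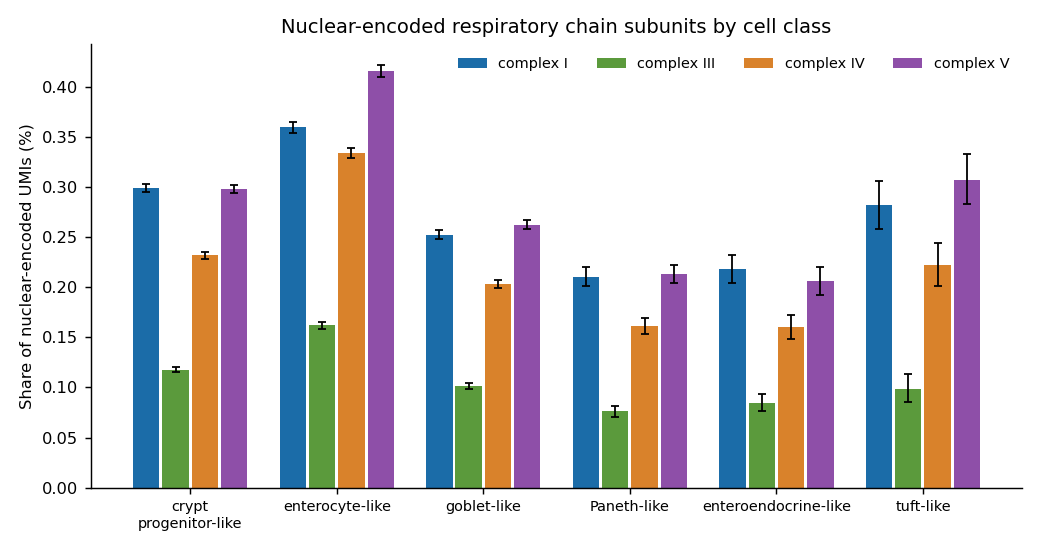
Bars give the percent of nuclear-encoded UMIs taken by the member genes of each complex in each of 6 cell classes, and error bars are 95% counting intervals. Enterocyte-like cells are highest for every complex, with complex V at 0.416% and complex I at 0.360%.

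The order depended on what the members were counted against. As a percent of all UMIs, mtDNA-encoded ones included, enterocyte-like cells were the lowest class at 0.259%, and crypt progenitor-like cells the highest at 0.420%. The other classes lay between 0.357% and 0.397% on that scale. Counted per cell, crypt progenitor-like cells held 32.6 member UMIs, goblet-like 26.9, Paneth-like 25.3 and tuft-like 20.7, while enterocyte-like and enteroendocrine-like cells each held 15.5. The median crypt progenitor-like cell had UMIs of 21 different members, and the median enterocyte-like cell of 10. A mean of 1216 nuclear-encoded UMIs was counted per enterocyte-like cell, 3442 per crypt progenitor-like cell and 2316 per enteroendocrine-like cell. Enterocyte-like cells thus had fewer nuclear-encoded UMIs with a larger member share, and enteroendocrine-like cells more of them with a smaller share. Ribosomal protein genes took 3.79% of nuclear-encoded UMIs in enterocyte-like and 4.49% in crypt progenitor-like cells, and 2.60% to 3.83% in the other 4 classes. The nuclear RNA Malat1 took 1.56% in enterocyte-like, 0.649% in crypt progenitor-like and 2.61% in tuft-like cells. Their part in the member shares was not tested.

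The enterocyte-like class was not uniform. Its cluster 0, the largest with 1600 cells and led by Tmprss15 and Xdh, gave 1.57% to the members, and cluster 10, led by Sis, Lct and Reg3b, gave 1.51%. The villus tip cluster 8, led by the nucleoside genes Slc28a2, Nt5e and Ada, gave 1.13%. Clusters 5 and 9 gave 0.954% and 0.955%, below the 1.03% of crypt progenitor-like cluster 2 and above the 0.854% of cluster 4, where the stem cell marker Lgr5 led. The class as a whole without cluster 0 stood at 1.19%. Cluster 0 also had 6.44% ribosomal protein UMIs and 88.5% mtDNA-encoded UMIs, against 2.61% and 67.1% in cluster 10. The highest share of all clusters, 2.57%, was in the unnamed cluster 3, whose leading genes were Rpl32, Tomm7, Tmsb4x and the member Atp5e. That cluster held 11.8% ribosomal protein UMIs, 90.2% mtDNA-encoded UMIs and a mean of only 478 nuclear-encoded UMIs per cell. Lymphocyte-like cells stood at 1.45%, and the unnamed cluster 1, with 907 cells and Gsdmc2, Cyp4f40 and Car4 among its leading genes, at 1.24%. Across the 17 clusters the member share and the ribosomal protein share had a Pearson r of 0.872 and a Spearman rho of 0.537. Without cluster 3 these were 0.597 and 0.444. The member share and the mtDNA-encoded share of all UMIs had a rho of 0.863 across the same clusters. The clusters share 1 library and differ in depth. They were built without the members and without mtDNA-encoded genes.

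**Figure D2:**
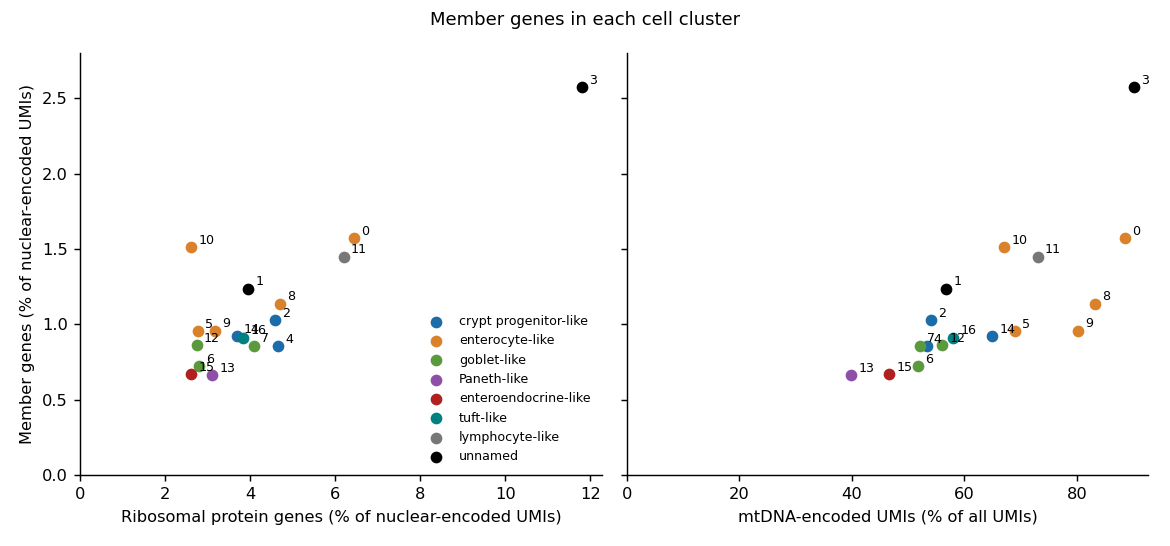
Each point is 1 of 17 cell clusters, with the member genes' percent of nuclear-encoded UMIs against the ribosomal protein percent of nuclear-encoded UMIs (left) and the mtDNA-encoded percent of all UMIs (right). Unnamed cluster 3 stands highest at 2.57%, and enterocyte-like clusters range from 0.954% to 1.57%.

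Each of the 5 other classes was then compared with enterocyte-like cells gene by gene, which asks which subunits follow the overall share. Because all 5 comparisons share the enterocyte-like cells, their values are given side by side and no likeness between them is drawn. Genes with at least 100 UMIs over both classes were compared, and a gene was called higher or lower at a 1.5-fold difference or more. In crypt progenitor-like cells 21 of 75 members were lower and 1 was higher, against 21.3% lower and 43.7% higher among all 9675 genes compared. In goblet-like cells 47 of 75 were lower and 1 higher (19.3% and 28.6% of all genes). In Paneth-like cells 61 of 74 were lower and 0 higher (39.8% and 16.7%), and in enteroendocrine-like cells also 61 of 74 and 0 (34.7% and 25.2%). In tuft-like cells 33 of 74 were lower and 0 higher (34.4% and 25.5%). The 1 higher member in crypt progenitor-like cells lay far below the background. The count of lower members there rested on the processing. It was 38 of 75 at a coarser clustering (Leiden resolution 0.5), 58 of 75 relative to the median gene and 13 of 76 with clusters from chromatin peaks. The share of all genes called lower was not computed under these choices, so these counts cannot be set against the 21.3%. Both other clusterings also changed which cells were compared. The coarser one had no separate cluster with Rpl32 among its leading genes, as unnamed cluster 3 had. The crypt class from chromatin peaks took in clusters with Ces1f or Gsdmc3 among their leading genes, as in unnamed cluster 1. The goblet-like, Paneth-like and enteroendocrine-like counts lay far above the background for lower genes.

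The median member had a log2 ratio of -0.44 in crypt progenitor-like, -0.65 in goblet-like, -0.96 in Paneth-like, -0.87 in enteroendocrine-like and -0.53 in tuft-like cells. The median gene of all stood at 0.40, 0.13, -0.35, -0.11 and -0.08 in the same comparisons. Relative to that gene the members lay at -0.83, -0.78, -0.61, -0.75 and -0.45. Per UMI of all kinds the same medians were positive, at 0.68, 0.54, 0.60, 0.52 and 0.51, because mtDNA-encoded UMIs then enter the denominator. The median gene was higher still on that scale, at 1.52, 1.33, 1.22, 1.28 and 0.96. A change of denominator adds the same value to every gene of a comparison, so the distance of the members from the median gene is the same on either scale. Without cluster 0 the count of lower members was 27 of 75 in goblet-like and 20 of 73 in tuft-like cells. The share of all genes called lower without cluster 0 was not computed.

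**Figure D3:**
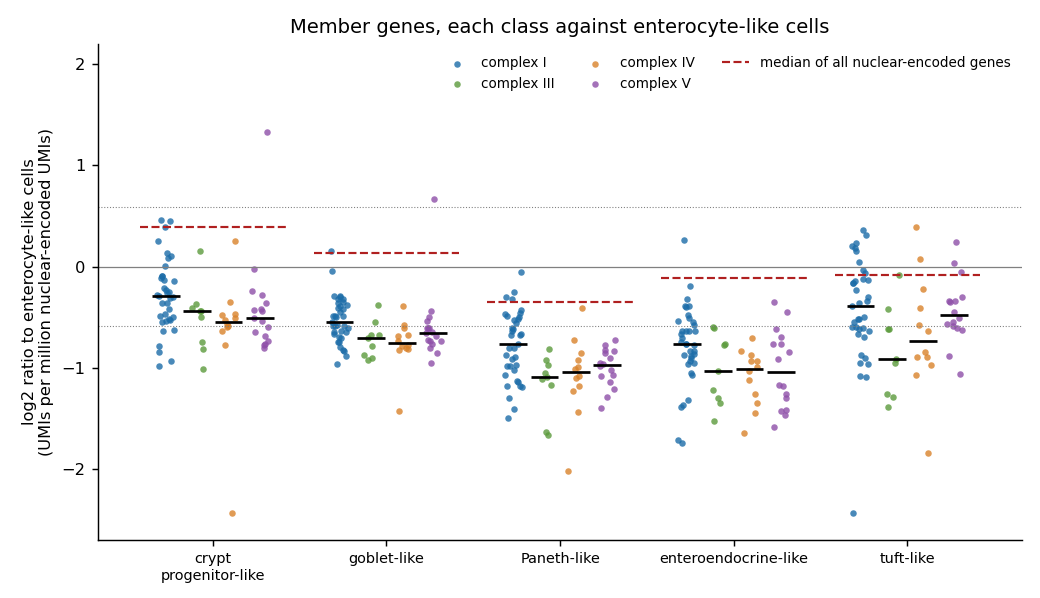
Each point is 1 member gene's log2 ratio of CPM in a class over enterocyte-like cells, coloured by complex, with black lines at each complex's median, red dashes at the median of all genes and dotted lines at 1.5-fold. In all 5 classes every complex's median lies below the median of all genes, and Atp5g2 at 1.33 and Cox7a1 at -2.43 stand apart in crypt progenitor-like cells.

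Complex I, which takes electrons from NADH, had the highest median of the 4 complexes with members in each of the 5 classes. Its median was -0.29 in crypt progenitor-like, -0.55 in goblet-like, -0.76 in Paneth-like, -0.76 in enteroendocrine-like and -0.39 in tuft-like cells. In crypt progenitor-like cells 6 of its 37 compared subunits were lower and 0 higher. The lowest was Ndufa1, a small accessory subunit that is needed for assembly. Its level was 39.6 CPM in crypt progenitor-like, 78.6 in enterocyte-like, 40.3 in goblet-like, 38.6 in Paneth-like, 38.0 in enteroendocrine-like and 51.7 in tuft-like cells. Enterocyte-like cells were thus highest, and the crypt ratio was -0.99 (-1.22 to -0.75). Ndufa11, whose promoter is shown above, stood at 44.5 in crypt progenitor-like against 85.1 in enterocyte-like cells, a log2 ratio of -0.93 (-1.16 to -0.71). The accessory subunit Ndufa6 stood at 87.3 against 157, a ratio of -0.85.

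The highest complex I members in crypt progenitor-like cells lay above enterocyte-like cells without reaching 1.5-fold. Ndufa10, an accessory subunit, stood at 105 CPM against 75.8, with a log2 ratio of 0.46 (0.28 to 0.65). Ndufs4, an accessory subunit whose loss causes Leigh-like disease in mice, stood at 208 against 153, with a ratio of 0.45 (0.32 to 0.58). Ndufs1, the largest core subunit, stood at 147 against 112, with a ratio of 0.39 (0.24 to 0.55). All 3 remained close to the median gene, which was at 0.40 in that comparison. In goblet-like cells 17 of 37 complex I members were lower, with Ndufa1 at -0.96, Ndufa5 at -0.88 and Ndufs7 at -0.83. The highest there were Ndufs4 at 0.15, Ndufa10 at -0.05 and Ndufs6 at -0.29.

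Complex III carries electrons from ubiquinol to cytochrome c. Its median was -0.44 in crypt progenitor-like, -0.71 in goblet-like, -1.09 in Paneth-like, -1.03 in enteroendocrine-like and -0.91 in tuft-like cells. Lower members numbered 3, 7, 9, 9 and 7 of 9, and 0 were higher in any class. Uqcrb, the ubiquinone-binding subunit, stood at 72.0 CPM in crypt progenitor-like, 146 in enterocyte-like, 79.6 in goblet-like, 46.7 in Paneth-like, 57.0 in enteroendocrine-like and 77.5 in tuft-like cells. The enterocyte-like level was the highest, and the crypt ratio was -1.02 (-1.19 to -0.84). Uqcrfs1, the Rieske iron-sulfur protein, stood at 56.7 against 99.8, a crypt ratio of -0.82 (-1.02 to -0.62), and was the second lowest member in Paneth-like cells at -1.66 (-2.24 to -1.14). Uqcrq stood at 156 against 262, with a crypt ratio of -0.75 and a goblet ratio of -0.67.

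Uqcrc2, a core protein of complex III, went against its complex in crypt progenitor-like cells. It stood at 176 CPM there, 158 in enterocyte-like, 121 in goblet-like, 70.1 in Paneth-like, 92.5 in enteroendocrine-like and 150 in tuft-like cells. Its crypt ratio was 0.15 (0.02 to 0.29) and its goblet ratio -0.38. Uqcrh, the hinge subunit, followed at -0.37 in crypt and -0.54 in goblet, and Uqcr11 at -0.40 in crypt progenitor-like cells. Cyc1, cytochrome c1, was the lowest member of the complex in goblet-like cells, at 71.9 against 136 CPM and a ratio of -0.92. Cycs, the electron carrier cytochrome c, is not a member and lay at -1.24 in crypt and -1.18 in goblet-like cells.

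Complex IV, cytochrome c oxidase, had medians of -0.54, -0.75, -1.05, -1.01 and -0.74 in the order crypt, goblet, Paneth, enteroendocrine and tuft. Of its 12 compared members, 5, 10, 11, 12 and 7 were lower. The lowest in crypt progenitor-like and goblet-like cells was Cox7a1, described below with its isoforms. Cox7a2, the isoform found in most tissues, stood at 136 CPM in crypt progenitor-like, 233 in enterocyte-like, 140 in goblet-like, 109 in Paneth-like, 107 in enteroendocrine-like and 119 in tuft-like cells. Its crypt ratio was -0.78, and enterocyte-like cells again stood above the 5 others. Cox5a stood at 233 against 362 in enterocyte-like cells, a ratio of -0.63, and Cox5b at -0.46. Cox7c had a crypt ratio of -0.35 and a goblet ratio of -0.61. In goblet-like cells Cox7b and Cox5b were both at -0.82, and Cox8a was among the highest at -0.57.

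Cox7a2l, a protein that joins complexes III and IV in supercomplexes, was the highest complex IV member in both comparisons. It stood at 108 CPM in crypt progenitor-like, 90.5 in enterocyte-like, 69.0 in goblet-like, 68.1 in Paneth-like, 47.5 in enteroendocrine-like and 119 in tuft-like cells. The crypt ratio was 0.25 (0.08 to 0.43) and the goblet ratio -0.39. In tuft-like cells it was the highest of all members, at 0.39 with an interval of -0.28 to 1.00 that includes no difference.

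Complex V had medians of -0.51, -0.66, -0.98, -1.04 and -0.48 in the same order of classes. In Paneth-like cells 16 of 16 compared members were lower. In crypt progenitor-like cells 7 of 17 were lower, and Atp5g2 was the 1 that was higher. Atp5e stood at 168 CPM in crypt progenitor-like, 293 in enterocyte-like, 186 in goblet-like, 165 in Paneth-like, 164 in enteroendocrine-like and 238 in tuft-like cells. The crypt ratio was -0.80 (-0.92 to -0.69). Atp5d, subunit delta, stood at 171 against 292, with ratios of -0.77 in crypt and -0.86 in goblet. Atp5o, which encodes the stalk protein OSCP, stood at 146 against 248, with ratios of -0.76 and -0.95. Atp5mpl was at -0.81 in goblet-like cells. The next highest members of the complex were Atp5c1, subunit gamma, at -0.02 in crypt and -0.44 in goblet, and Atp5pb, subunit b, at -0.25 and -0.50. A second feature with the symbol Atp5o, starting at position 91926982 of chromosome 16 against 91931687 for the first, held 156 UMIs over all barcodes against 4261. Reads could be split between these features, so the level of Atp5o is uncertain.

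The smaller classes gave wider intervals. In Paneth-like cells Ndufa10 at -0.05 and Ndufb11 at -0.25 were the highest members. In enteroendocrine-like cells the lowest were Ndufb3 at -1.74 (-2.71 to -0.92, 12 UMIs) and the core subunit Ndufv1 at -1.72 (-3.18 to -0.57, 6 UMIs). Ndufs4 was the highest there, at 0.26. In tuft-like cells Ndufb4 was lowest at -2.43, from 1 UMI and with an interval of -7.75 to 0.07, so that a difference was not detectable at this depth. Ndufs4 stood at 0.36 (-0.15 to 0.83) in those cells.

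Within the members, longer genes had higher ratios. Spearman's rho between gene length and log2 ratio over members was 0.52 in crypt, 0.43 in goblet, 0.23 in Paneth, 0.28 in enteroendocrine and 0.38 in tuft-like cells, over 74 or 75 members. Over all genes it was 0.19, 0.26, 0.14, 0.35 and 0.19. The members were short genes, with a median length of 7082 bases against 27086 for all genes in the crypt comparison. Genes share libraries and are not independent replicates. Whether reads in introns were counted is not given in the sources used here.

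Genes that serve the same complexes without being their subunits were read beside them. The 4 subunits of complex II, encoded wholly in the nucleus, had a median of -0.10 in crypt, from Sdhb at -0.71 to Sdha at 0.32, and 1 of 4 was lower. Of 40 compared assembly factors 17 were higher and 3 lower in crypt progenitor-like cells, with a median of 0.44, against 43.7% and 21.3% of all genes. The count of higher factors was thus close to the background. The highest were Nubpl at 2.83 and Ndufaf7 at 2.32, which act in complex I assembly, and the lowest were the copper chaperone Sco2 at -2.51 and Cox19 at -0.73. The assembly factors thus lay near the median gene of 0.40, and the subunits they assemble below it. In goblet-like cells 9 of 34 assembly factors were higher and 4 lower, with a median of -0.15, against 28.6% and 19.3% of all genes. Of 8 regulators of respiratory genes, 5 were higher and 2 lower in crypt progenitor-like cells, against the same 43.7% and 21.3%. The coactivator Ppargc1a was lowest at -2.52 and the receptor Esrra next at -0.90, while the related coactivator Ppargc1b was highest at 1.68 and Nrf1 next at 1.21. Ribosomal protein genes, another group of short and abundant transcripts, had medians of 0.22 in crypt and -0.20 in goblet.

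Several subunits exist as isoforms, and most tissue-restricted ones were at or near 0. Cox4i2, the isoform known from lung, Cox7b2 and Cox8c, known from testis, and Cox8b, known from muscle and brown fat, had 0 UMIs in all 6 classes. For Cox4i2 in enterocyte-like cells, 0 of 2437 UMIs of the Cox4i pair allows a share of up to 0.123%. Cox6a2, the muscle isoform, had 1 UMI of 1579 of its pair in crypt progenitor-like cells and 0 elsewhere. Other members under the minimum of 100 UMIs in the crypt comparison were Ndufa11b, Ndufb4c, Ndufs6b, Cox6c2, Cox6b2 and the second Atp5o feature. Over all kept cells they held 1, 13, 2, 1, 67 and 149 UMIs.

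Cox7a1 was the exception among the muscle isoforms, and its level was highest in enterocyte-like cells. It stood at 6.86 CPM in crypt progenitor-like, 37.0 in enterocyte-like, 13.8 in goblet-like, 9.15 in Paneth-like, 11.9 in enteroendocrine-like and 10.3 in tuft-like cells, from 45, 171, 68, 9, 5 and 2 UMIs. The log2 ratio to enterocyte-like cells was -2.43 (-2.94 to -1.95) in crypt and -1.43 (-1.85 to -1.01) in goblet. It was -2.02 (-3.17 to -1.06) in Paneth, -1.64 (-3.28 to -0.39) in enteroendocrine and -1.84 (-4.90 to 0.03) in tuft, where the interval includes no difference. With cells clustered from chromatin peaks instead, the crypt ratio was -1.64, in a crypt class that took in clusters sharing leading genes with unnamed cluster 1. Per UMI of all kinds the crypt ratio was -1.31. As a share of the Cox7a1, Cox7a2 and Cox7a2l group, Cox7a1 took 10.3% (8.86 to 11.8) in enterocyte-like, 6.18% (4.83 to 7.77) in goblet-like and 2.74% (2.00 to 3.65) in crypt progenitor-like cells. These 3 intervals do not overlap. The share was 4.92% (2.27 to 9.13) in Paneth-like cells. It was 7.14% (2.36 to 15.9) in enteroendocrine-like and 4.17% (0.509 to 14.3) in tuft-like cells. Every enterocyte-like cluster was above every crypt progenitor-like one, at 15.3 to 58.2 CPM against 6.01 to 10.1. Lymphocyte-like cells stood at 21.0 CPM.

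Cox6b2, known from sperm, was also highest in enterocyte-like cells, on few UMIs. It took 42 of 1278 UMIs of the Cox6b pair in enterocyte-like cells, or 3.29% (2.38 to 4.42), and 8 of 1177 in crypt progenitor-like cells, or 0.680% (0.294 to 1.33). In goblet-like cells it was 9 of 831 (1.08%), and in Paneth-like, enteroendocrine-like and tuft-like cells 0, which allows shares of up to 2.05%, 5.08% and 7.69%. Among enterocyte-like clusters Cox6b2 was highest in the tip cluster 8 at 30.6 CPM and at 0 in cluster 10, where Cox7a1 was highest at 58.2.

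The 3 Atp5g genes encode the same mature subunit c, and their balance differed between classes. Atp5g2 stood at 25.0 CPM in crypt progenitor-like, 9.96 in enterocyte-like, 15.8 in goblet-like, 19.3 in Paneth-like, 11.9 in enteroendocrine-like and 5.17 in tuft-like cells, from 164, 46, 78, 19, 5 and 1 UMIs. The log2 ratio was 1.33 (0.85 to 1.83) in crypt and 0.67 (0.12 to 1.22) in goblet. The goblet value missed 1.5-fold under several of the other processing choices. Atp5g2 took 5.46% (4.68 to 6.34) of the group's UMIs in crypt progenitor-like cells, 3.87% (3.07 to 4.81) in goblet-like and 1.53% (1.12 to 2.03) in enterocyte-like cells. In Paneth-like cells the share was 5.51% (3.35 to 8.47). Atp5g3 was the main isoform, with 59.4% in crypt progenitor-like and 65.4% in enterocyte-like cells. Among enterocyte-like clusters Atp5g2 ranged from 2.59 CPM in cluster 5 to 19.4 in cluster 10, against 20.2 to 25.8 in the crypt progenitor-like clusters. Lymphocyte-like cells had 37.3.

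The complexes also draw on 13 mRNAs from mtDNA, and the balance of the genomes differed between classes. For each mtDNA-encoded mRNA UMI, crypt progenitor-like cells held 0.0779 member UMIs, enteroendocrine-like 0.0542, Paneth-like 0.0511, goblet-like 0.0434, tuft-like 0.0350 and enterocyte-like 0.0161. The nuclear share was thus lowest in the class whose nuclear RNA was richest in members. Summed over each class, every complex showed this direction, with 0.116 in crypt progenitor-like against 0.0228 in enterocyte-like cells for complex I. For complex III it was 0.151 against 0.0333, for complex IV 0.0385 against 0.00827 and for complex V 0.108 against 0.0233. Single clusters overlapped. Enterocyte-like clusters ranged from 0.00896 in cluster 0 to 0.0472 in cluster 10, and crypt progenitor-like clusters from 0.0265 in cluster 14, which had high doublet scores, to 0.117 in cluster 2. Of the 3799 enterocyte-like cells 1826 had at most 80% mtDNA-encoded UMIs. With cells over 80% left out of every class the ratio in enterocyte-like cells was 0.0453, above the 0.0407 of tuft-like and below the 0.0469 of goblet-like and 0.0843 of crypt progenitor-like cells.

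Along the villus the member share was lower toward the tip. Enterocyte-like cells with at least 5 UMIs of villus landmark genes, 3166 of 3799, were put in 5 zones of near equal size by the share of tip landmarks. These zones are ranges of a score and not cell types, and 1734 cells lay within 0.05 of an edge. From base to tip the members took 1.43% (1.41 to 1.45), 1.26%, 1.27%, 1.19% and 0.976% (0.954 to 0.999) of nuclear-encoded UMIs. The base zone was highest, the middle ones were close together and the tip was lowest. Complex I went from 0.397% to 0.275%, and complex V from 0.455% to 0.316%. Other measures also differed between the zones. From base to tip the mtDNA-encoded share was 71.1%, 81.9%, 82.4%, 83.4% and 79.2%, lowest at the base and highest in zone 4. The Malat1 share was 1.30% at the base and 2.50% at the tip. The median cell had 1505.5 nuclear-encoded UMIs at the base and 773 to 933 in the other zones. The base zone drew 282 of 670 cells from cluster 10, and the tip zone 339 of 609 from cluster 8. Their part in the result was not tested.

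**Figure D4:**
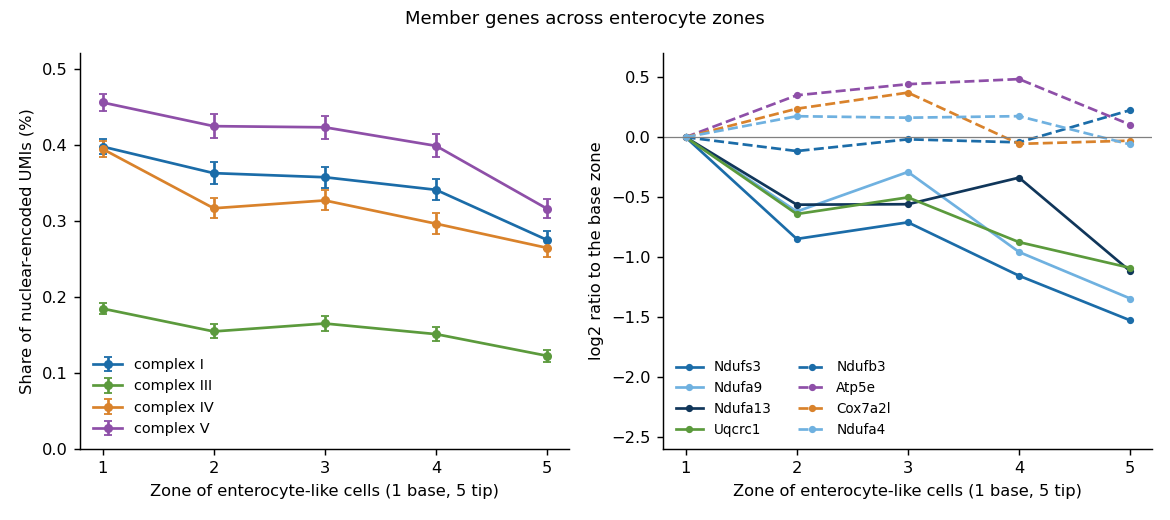
Left, the percent of nuclear-encoded UMIs taken by each complex in zones of enterocyte-like cells from villus base (1) to tip (5), with 95% counting intervals, and right, the log2 ratio of named members in each zone to the base zone. Every complex is lowest at the tip, with complex I at 0.275%, and Ndufs3 reaches -1.53.

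Between the tip and base zones 34 of 71 compared members were lower and 0 higher, against 29.9% and 14.5% of all genes. The median member was at -0.56 and the median gene at -0.21. By complex the medians were -0.61 for I (17 of 34 lower), -0.47 for III (4 of 9), -0.56 for IV (6 of 12) and -0.38 for V (7 of 16). Without cluster 10 the count was 16 of 58. It was 19 of 73 with 3 zones in place of 5, 21 of 70 without Apoa4 and the Reg genes among the landmarks and 19 of 71 relative to the median gene, so the count rested on these choices. Ndufs3, a core complex I subunit, stood at 89.3, 49.6, 54.6, 40.1 and 31.0 CPM from base to tip, with a ratio of -1.53 (-2.24 to -0.88). The base zone stood apart, and the tip was lowest. Ndufa9, an accessory subunit, stood at 71.9, 46.8, 58.8, 37.0 and 28.3, with a ratio of -1.35 (-2.10 to -0.66). Ndufa13, also known as GRIM-19, had a ratio of -1.12. Uqcrc1, a core protein of complex III, stood at 212, 136, 150, 116 and 99.6, with a ratio of -1.09 (-1.48 to -0.72).

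The 4 highest members had tip ratios whose intervals include no difference. Ndufb3 stood at 92.1, 85.0, 91.0, 89.4 and 108 CPM, with a tip ratio of 0.23 (-0.19 to 0.64). Atp5e stood at 238, 303, 323, 333 and 256 CPM, highest in zone 4, with a tip ratio of 0.10 (-0.16 to 0.36). Cox7a2l was at -0.03 (-0.49 to 0.42) and Ndufa4 at -0.06 (-0.29 to 0.16). Ndufa4 carries a complex I name and was counted there, though its protein has since been assigned to complex IV. Cox7a1 stood at 57.9, 38.3, 21.0, 18.5 and 29.6, with a ratio of -0.97 (-1.72 to -0.28). Cox6b2 went the other way, from 3 UMIs at the base to 15 at the tip (2.09 to 20.2 CPM, log2 interval 1.45 to 5.70). Atp5g2 had 25 UMIs at the base and 2 at the tip (log2 interval -5.82 to -0.69). Cox6b2 and Atp5g2 were under the minimum for calls in this comparison.

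At the median, open chromatin at the members' gene starts lay close to that of promoters in general in each class. Of the 86 members 79 had a peak within 1000 bases of the start, against 41.8% of all nuclear genes. The 7 without one were Ndufa11b, Ndufb4c, Cox4i2, Cox6c2, Cox7b2, Cox8b and Cox8c, which also had few or 0 UMIs. For 33 of the 79 the peak also lay at the start of another gene, so its fragments cannot be assigned to 1 gene. Promoter fragments per 1000000 fragments in all peaks, written FPM below, gave a median log2 ratio to enterocyte-like cells of 0.17 in crypt, 0.19 in goblet, 0.14 in Paneth, 0.28 in enteroendocrine and 0.39 in tuft-like cells. The median promoter of all genes was at 0.27, 0.21, 0.20, 0.31 and 0.36. With clusters from chromatin peaks the tuft median of the members was 0.58. That tuft-like cluster of 105 cells also had a median log2 of 3.565 on the lymphocyte marker list. No cluster was named lymphocyte-like there, so the value may not describe the same cells. In crypt progenitor-like cells 10 of 78 member promoters were higher and 1 lower by 1.5-fold, against 31.7% and 7.15% of all promoters. In goblet-like cells 6 were higher and 1 lower of 78 (22.4% and 6.65%), and in Paneth-like cells 6 and 3 of 77 (21.8% and 8.44%). Enteroendocrine-like cells had 22 and 3 of 77 (30.5% and 11.3%), and tuft-like cells 27 and 3 of 77 (33.5% and 11.6%). Fewer member promoters than promoters in general were thus called higher in crypt, goblet and Paneth-like cells. Member promoters also held more fragments, with a median of 3088 over all kept cells against 1807 for all genes with a promoter peak. The part of this depth in the counts was not tested. At the median the members' RNA lay below enterocyte-like levels in these classes on the nuclear-encoded scale, while their promoter fragments did not. Promoter peaks held 46.9% of all peak fragments in enterocyte-like and 50.6% to 56.8% in the other classes. Per fragments in promoter peaks the 5 medians were 0.058, 0.074, -0.0028, 0.059 and 0.11.

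Cox7a1 had fewer fragments at its promoter as well. Its promoter stood at 40.0 FPM in crypt progenitor-like, 50.8 in enterocyte-like, 40.3 in goblet-like, 25.6 in Paneth-like, 25.1 in enteroendocrine-like and 26.2 in tuft-like cells. The log2 ratios were -0.35 (-0.46 to -0.23), -0.33, -0.99, -1.02 and -0.95. Cox6a2 was the member promoter with the lowest crypt ratio, although its RNA was near 0. It had 49 fragments in crypt progenitor-like and 155 in enterocyte-like cells, or 1.85 and 6.27 FPM, a ratio of -1.76 (-2.25 to -1.29), and its goblet ratio was -2.22. The Cox6b2 promoter had ratios of 0.11 (-0.16 to 0.37) in crypt, -0.53 (-0.85 to -0.21) in goblet, -0.66 (-1.53 to 0.09) in Paneth, -0.35 (-1.43 to 0.56) in enteroendocrine and 0.61 (-0.54 to 1.56) in tuft-like cells. Atp5g2, whose NRF1 palindrome is shown above, had 46.0 FPM in crypt progenitor-like and 36.2 in enterocyte-like cells, a ratio of 0.35. Its peak also covers the start of Mir688.

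The highest crypt ratios were at Atp5l, Ndufs3 and Ndufa12. Atp5l, an ATP synthase subunit, had 31.3 FPM against 13.5, a ratio of 1.22, and shares its peak with Gm30934, while its RNA ratio was -0.44. Ndufs3, whose ETS letters are shown above, had 24.2 against 11.9, a ratio of 1.03, and shares its peak with Kbtbd4, while its RNA ratio was 0.25. Ndufa12 had 24.3 against 13.1, a ratio of 0.89, with an RNA ratio of 0.13. In the small classes the highest promoters were Ndufa13 at 1.15, Ndufc2 at 1.14 and Atp5j2 at 1.06 in enteroendocrine-like cells, and Ndufc2 at 1.35 with Ndufa13 and Ndufa3 at 1.15 in tuft-like cells. The tuft-like value of Ndufc2 rested on 15 fragments (0.48 to 2.10). The lowest included Uqcr10 at -0.60 (-1.15 to -0.09) in enteroendocrine-like cells, which was at -0.10 in tuft-like cells. Cox7a2 was at -0.95 in tuft-like cells (-2.09 to -0.02, 9 fragments) and at 0.47 in enteroendocrine-like cells. Cox7c at 0.85 and Ndufb11 at 0.77 were among the highest in Paneth-like cells. The peaks of Ndufa13, Ndufa3, Uqcr10 and Ndufb11 also lay at the start of other genes.

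**Figure D5:**
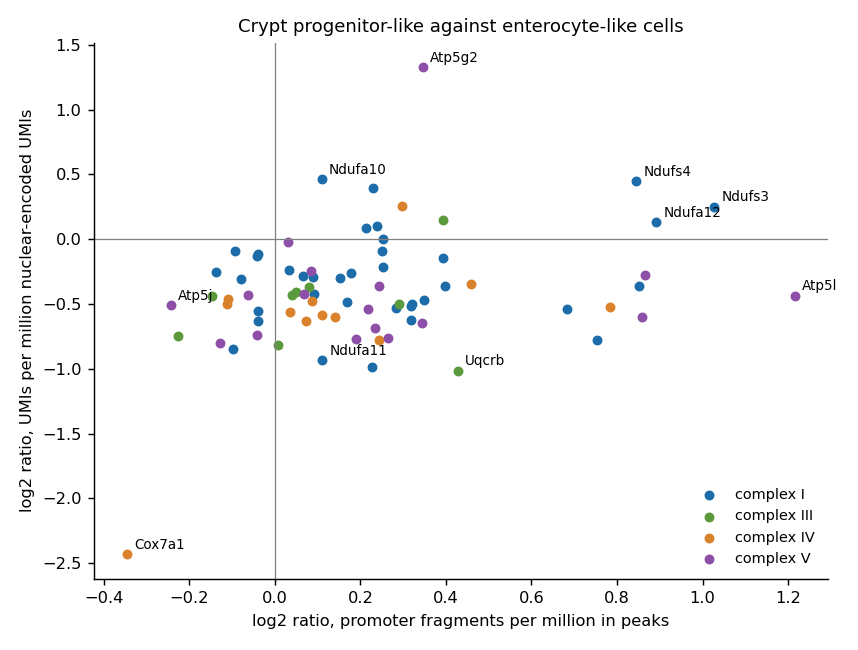
Each of 75 points is 1 member gene in crypt progenitor-like against enterocyte-like cells, with the log2 ratio of promoter FPM on the x axis and of CPM on the y axis, coloured by complex. Cox7a1 lies low on both axes (-0.35 and -2.43), and Atp5l is high in fragments (1.22) but not in RNA (-0.44).

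Across the 75 members the promoter and RNA log2 ratios in crypt had a Pearson r of 0.27, against 0.55 across 9359 genes. In the other 4 comparisons r over members was 0.27, 0.38, 0.16 and 0.17, against 0.66, 0.60, 0.59 and 0.54 over all genes. Spearman's rho over members was lower, at 0.17 in crypt, 0.18 in goblet, 0.25 in Paneth, 0.09 in enteroendocrine and 0.02 in tuft. Over all genes rho was 0.50, 0.54, 0.48, 0.46 and 0.41. These are correlations across genes in 1 pair of libraries, and genes are not independent replicates. Across the villus zones the median member promoter was at -0.10, near the -0.08 of all promoters. There 6 of 71 were lower and 0 higher, against 10.2% and 2.62%. The count of lower promoters was thus no higher than the background. The 6 were Ndufa3 at -0.93, Atp5a1 at -0.79, Ndufc2 at -0.78, Uqcrb at -0.77, Uqcrc2 at -0.76 and Cyc1 at -0.71. The peaks of Ndufa3, Atp5a1, Uqcrb and Uqcrc2 also lay at the start of another gene. The highest were Ndufc1 at 0.44 (-0.008 to 0.88), Cox4i1 at 0.34 (0.09 to 0.59) and Ndufa8 at 0.26 (-0.10 to 0.61). The intervals of Ndufc1 and Ndufa8 include no difference. The peaks of Cox4i1 and Ndufa8 also lay at the start of other genes.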

How the data were processed

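Per the labels, RNA and open chromatin came from the same fixed cells of 1 animal (10x Multiome). The authors deposited 1 matrix of raw counts, UMIs per gene and counts per peak for each barcode, made with Cell Ranger ARC 2.0.2 on mm10 per the submitters' processing notes. The gene annotation release is not given in the sources used here. Peak counts were mostly even (87.6%), so they were halved, rounding up, to fragments. The start of a gene and promoter peaks within 1000 bases of it were taken from the deposited feature table.

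Barcodes with at least 500 UMIs, 300 genes and 1000 peak counts were kept (9872 of 12363). Cells were clustered on nuclear-encoded genes without the members and the related lists (1500 variable genes, 30 components, 15 neighbours, Leiden) with scanpy 1.11.5 and leidenalg 0.10.2. A cluster was named from marker lists where its score reached 0.4 and led the next by 0.4, with at least 3 markers detected. This rule was set after the clusters were seen, and the part on competing lists (20 UMIs in at least 3 markers) was added after the villus tip cluster had been left unnamed. Scrublet's own threshold of 0.537 marked 0 cells, so doublet calling has not worked, and the 835 cells with the highest 8% of scores were left out only as an alternative. Clusters 12 (goblet-like) and 14 (crypt progenitor-like) had high median doublet scores of 0.173 and 0.206.

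UMIs were summed per class, and ratios carry exact conditional 95% counting intervals (scipy 1.17.1). Shares carry exact binomial (Clopper-Pearson) intervals, and a count of 0 allows up to 3 counts. Members and gene lists were chosen with earlier results of these data known. Named genes were the 3 highest and 3 lowest members of each complex in the crypt and goblet comparisons, the 2 highest and lowest in the other classes, the 4 in the zones and the 3 in promoter peaks, with all isoform groups. 1 result that this rule would name is not reported here. Promoter sequences came from RefSeq (GRCm38.p6). The ratios and calls were tested on simulated data, where 42 to 50 of 50 genes changed 2-fold or 4-fold passed 1.5-fold. Alternatives covered the denominator, count minimum, cell filters, clustering, depth and zones.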

Additional observations from a re-analysis of the deposited data

Results flagged for a closer look

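Features whose names carry the pseudogene mark -ps were outside the member list, and 6 of them still held UMIs, above the 3 counts that a count of 0 allows. Ndufb1-ps had 1735 UMIs over all barcodes. It stood at 64.0 CPM in crypt progenitor-like, 85.3 in enterocyte-like, 55.1 in goblet-like, 49.8 in Paneth-like, 47.5 in enteroendocrine-like and 87.8 in tuft-like cells. The other 5 were low, with 78 UMIs for Cox7c-ps1, 29 for Ndufa12-ps, 16 for Cox5b-ps, 11 for Ndufs5-ps and 5 for Atp5pb-ps. Reads of these 5 and of the members they are named after could be split between them. No gene named Ndufb1 is among the members. Whether Ndufb1-ps is a copy or the gene of that subunit cannot be told from its name, and the rule left it out by name alone.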

How the results depend on the processing

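No paired analysis was possible because the labels give 1 animal with 1 RNA and 1 chromatin library, and no group to pair. Values are given in the order crypt, goblet, Paneth, enteroendocrine and tuft unless said otherwise. Of the alternatives, leaving out cluster 0, the other enterocyte-like clusters (for the zones) and the 2 clusters with high doublet scores were chosen after seeing the data. Over the medians and counts of members, the isoform shares and the nuclear to mtDNA ratios, 228 recomputed values stayed close, 87 moved and 6 reversed. Over the log2 ratios of single named genes, 615 stayed close, 149 moved and 24 reversed. Where no value shows it, the cause was not tested. Counts under an alternative are of members only. The share of all genes called was not computed there, so these counts have no background.

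The choice of denominator moved most. Per UMI of all kinds the median log2 ratios of the members were 0.68, 0.54, 0.60, 0.52 and 0.51, with 50, 35, 40, 32 and 33 members higher and 1, 0, 0, 0 and 2 lower. The median gene of all was itself past 1.5-fold higher on that scale, at 1.52, 1.33, 1.22, 1.28 and 0.96. Between tip and base the members' median was then -1.03 with 66 lower, and the median gene of all stood at -0.69. The named members that reversed on this scale in crypt were Ndufa1 at 0.13, Ndufa11 at 0.19, Ndufa6 at 0.27, Uqcrb at 0.11, Uqcrfs1 at 0.31, Uqcrq at 0.37, Cox7a2 at 0.35, Cox5a at 0.49, Atp5e at 0.32, Atp5d at 0.35 and Atp5o at 0.36. In goblet they were Ndufa1 at 0.23, Ndufa5 at 0.31, Ndufs7 at 0.36, Cyc1 at 0.27, Uqcrfs1 at 0.29, Uqcrb at 0.32, Uqcrq at 0.52, Cox7b at 0.37, Cox5b at 0.37, Cox7c at 0.59, Atp5o at 0.24, Atp5d at 0.34 and Atp5mpl at 0.39. Centred on the median nuclear-encoded gene, the medians in crypt, goblet, Paneth and enteroendocrine were -0.83, -0.78, -0.61 and -0.75. With centring, 58 members were lower in crypt, 38 in Paneth and 21 in tuft, and 0 were higher in goblet. The zones then had a median of -0.34 and 19 lower members.

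Without cells above 80% mtDNA-encoded UMIs the medians in crypt, goblet, Paneth and enteroendocrine were -0.33, -0.51, -0.83 and -0.74, and that of the zones -0.83. Goblet then had 0 members higher and 28 lower, and tuft 1 higher. The Cox7a1 share in enterocyte-like cells was 12.1%. The nuclear to mtDNA ratios were 0.0843 in crypt, 0.0453 in enterocyte-like, 0.0469 in goblet and 0.0407 in tuft. Promoters numbered 2 higher in goblet and 1 lower in enteroendocrine. Without enterocyte-like cluster 0 the same 4 medians were -0.32, -0.51, -0.80 and -0.73, with 27 members lower in goblet, 20 lower in tuft and 1 higher in tuft.

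At Leiden resolution 0.5 the medians were -0.59, -0.76, -1.09, -1.04 and -0.65, with 38 members lower in crypt. No cluster with Rpl32 among its leading genes then stood apart, as unnamed cluster 3 did. The largest enterocyte-like cluster held 2986 cells with a median of 562 nuclear-encoded UMIs. The part of this changed reference class in the medians was not tested. At resolution 2 goblet had 0 higher. With clusters from chromatin peaks the goblet median was -0.70 with 0 higher. Crypt, which took in clusters sharing leading genes with unnamed cluster 1, had 2 higher and 13 lower, with a Cox7a1 share of 4.12%. The promoter medians were then 0.21 in Paneth and 0.58 in tuft, whose cluster also scored high on lymphocyte markers, and 2 goblet promoters were lower. Without the highest 8% of doublet scores the medians were -1.06 in Paneth and -1.01 in enteroendocrine, and goblet had 0 higher. Goblet also had 0 higher without the 2 clusters with high doublet scores. Thinned to 500 nuclear-encoded UMIs a cell, which left out 725 enterocyte-like cells and 2, 17, 1, 7 and 3 of the other classes, the Paneth median was -0.84. Goblet then had 0 higher and tuft 5. A minimum of 20 UMIs gave 2, 1 and 1 members higher in crypt, Paneth and tuft, and no minimum gave 5, 1 and 1.

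Per fragments in promoter peaks the promoter medians were 0.058, 0.074, -0.0028, 0.059 and 0.11. Promoters called higher then numbered 3 in goblet, 3 in Paneth, 9 in enteroendocrine and 10 in tuft, and 2 were lower in goblet. With 3 zones in place of 5 the RNA median was -0.42 with 19 lower members, and 1 promoter was higher. Without Apoa4 and the Reg genes among the landmarks it was -0.38 with 21 lower. Without enterocyte-like cluster 10, 16 of 58 members were lower.

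The depth of the small classes limited what could be read. In simulated data with no difference, 1115 of 6311 genes in the tuft-like comparison passed 1.5-fold by counting error, 543 of 6551 in the enteroendocrine-like, 164 of 6804 in the Paneth-like, 40 of 8629 in the goblet-like and 41 of 9431 in the crypt comparison. Single genes in tuft-like and enteroendocrine-like cells are therefore uncertain, and with 1 animal no spread between animals was measured.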
